A study of Vernicia fordii and Jatropha curcas with 4 samples.

Results

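Oil breakdown was followed through 32 Arabidopsis locus codes that stand for lipases, peroxisomal import, fatty acid beta-oxidation, the glyoxylate cycle and 2 steps beyond them. The members were chosen by code: every assembled contig whose deposited Arabidopsis code equalled a listed code was taken, and the RPKM values of a locus were summed. RPKM is a read count scaled to contig length and to the mapped reads of a library. Of the 32 codes, 27 had a contig in the table of Jatropha curcas (physic nut), out of 13319 loci, and the same 27 had one in the table of Vernicia fordii (tung tree), out of 13333. No contig carried the codes AT3G57140, AT2G35690, AT1G04710, AT5G48880 and AT2G42790, which in Arabidopsis are the second SDP1 lipase, acyl-CoA oxidase 5, thiolases KAT1 and KAT5 and citrate synthase CSY3. A close relative of each was found, and the tables cannot show whether reads of such copies lie under that relative's code. All 27 members had at least 1 RPKM in at least 1 library of each species.

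Seeds of both trees store oil as triacylglycerol, mainly in the endosperm. In plants, lipases release fatty acids from oil bodies, a transporter carries them into the peroxisome, and acyl-CoA oxidases, multifunctional proteins and thiolases shorten them stepwise to acetyl-CoA. Isocitrate lyase and malate synthase, the enzymes that only the glyoxylate cycle uses, turn acetyl-CoA into organic acids, from which phosphoenolpyruvate carboxykinase opens the way to sugar. The route is best known from oilseed seedlings after germination. Symbols below are those of Arabidopsis, where the roles were worked out, and none of these functions was measured in the seeds studied here.

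The 4 libraries came from seeds of 3-year-old trees, with the RNA of 3 seeds pooled in each, and no genotype, treatment or other group is given in the labels. Jatropha seeds were taken at 29 and 37 days after pollination and Vernicia seeds at 90 and 135 days, the earlier day being the start of oil accumulation and the later day its fast phase. The labels give seed as the tissue and endosperm as the source. The value columns carry the numbers 7 and 8 with no stage, so the libraries are named by number, and library 8 is not said to be earlier or later than library 7. With 1 library per stage there was no replicate check and no p-value, and differences are given by size alone. The 2 Jatropha libraries (7, then 8) held 1104588 and 817400 RPKM in all, and those of Vernicia 676071 and 751745. The number of reads is unknown, so no counting error can be attached to a value.

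Seed filling genes were present in every library. The Arabidopsis cruciferin codes (3 listed, 3 found in Jatropha and 2 in Vernicia) summed to 509 RPKM in library 7 of Jatropha and 133703 in its library 8, and to 333 and 69945 in Vernicia. In Jatropha CRU1 alone had 447 and 133634 RPKM, while CRU3 had 44.2 and 57.7 and CRU2 18.0 and 11.5. Oleosin codes (4 listed, 3 and 4 found) summed to 956 and 21181 RPKM in Jatropha and to 152 and 10535 in Vernicia. In Jatropha OLEO1 and OLEO2 were higher in library 8, while OLEO5 had 6.39 and 3.67 RPKM. All cruciferin and oleosin codes found in Vernicia were higher in library 8. Green tissue codes (3 of 4 found in each species) summed to 41.3 and 116 RPKM in Jatropha and to 80.6 and 204 in Vernicia, with the chlorophyll-binding protein code AT1G29910 absent from both tables. Their members went different ways in Jatropha: RBCS1A, the small subunit of Rubisco, had 23.7 and 109.97 RPKM, the light-harvesting protein LHCA2 12.0 and 0.33, and Rubisco activase RCA 5.59 and 5.27. In Vernicia these had 72.4 and 192, 5.79 and 5.53, and 2.41 and 5.91 RPKM. Seed coat codes (3 of 3 found) summed to 27.1 and 5.93 RPKM in Jatropha and to 45.3 and 59.6 in Vernicia. All 3 were lower in library 8 of Jatropha, while in Vernicia BAN, a tannin enzyme, had 27.9 and 53.8 RPKM, DFR 13.8 and 4.38 and TT10 3.67 and 1.43. These lists differed between the libraries in which the members below were compared, and their part in those differences was not tested. In RNA from whole tissue, fewer cells of a type and less RNA per cell cannot be told apart.

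The members did not move together. Isocitrate lyase and malate synthase were low in library 7 of both species and near the top of all loci in library 8, while SDP1, CGI58 and most beta-oxidation loci differed less than 2-fold as deposited. The difference of a locus was taken as log2((library 8 + 1)/(library 7 + 1)), with RPKM values. In Jatropha 3 of the 27 members (11.1%) had an excess of 2-fold or more in library 8 and 5 (18.5%) a deficit of 2-fold or more, against 7.15% and 46.9% of all 12931 loci with at least 1 RPKM in either library. In Vernicia 5 were at least 2-fold higher (18.5%) and 4 lower (14.8%), against 7.7% and 18.8% of 12896 loci. The median member differed by -0.29 in Jatropha and -0.27 in Vernicia, beside medians of -0.93 and -0.48 over all loci.

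Most loci of both tables were thus lower in library 8 as deposited. Trimmed mean scaling, which removes the shift shared by most contigs, raised library 8 by a log2 value of 0.84 in Jatropha and 0.40 in Vernicia. After it, 12 members were at least 2-fold higher in Jatropha library 8 and 2 lower, against 15.0% and 24.3% of all loci. In Vernicia 6 were higher and 2 lower, against 11.2% and 9.42%. The median member then stood at 0.52 in Jatropha and 0.11 in Vernicia, beside -0.21 and -0.13 over all loci. Directions of small differences therefore depend on the scaling, and a difference below is called scaled where it was computed after this step.

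**Figure D1:**
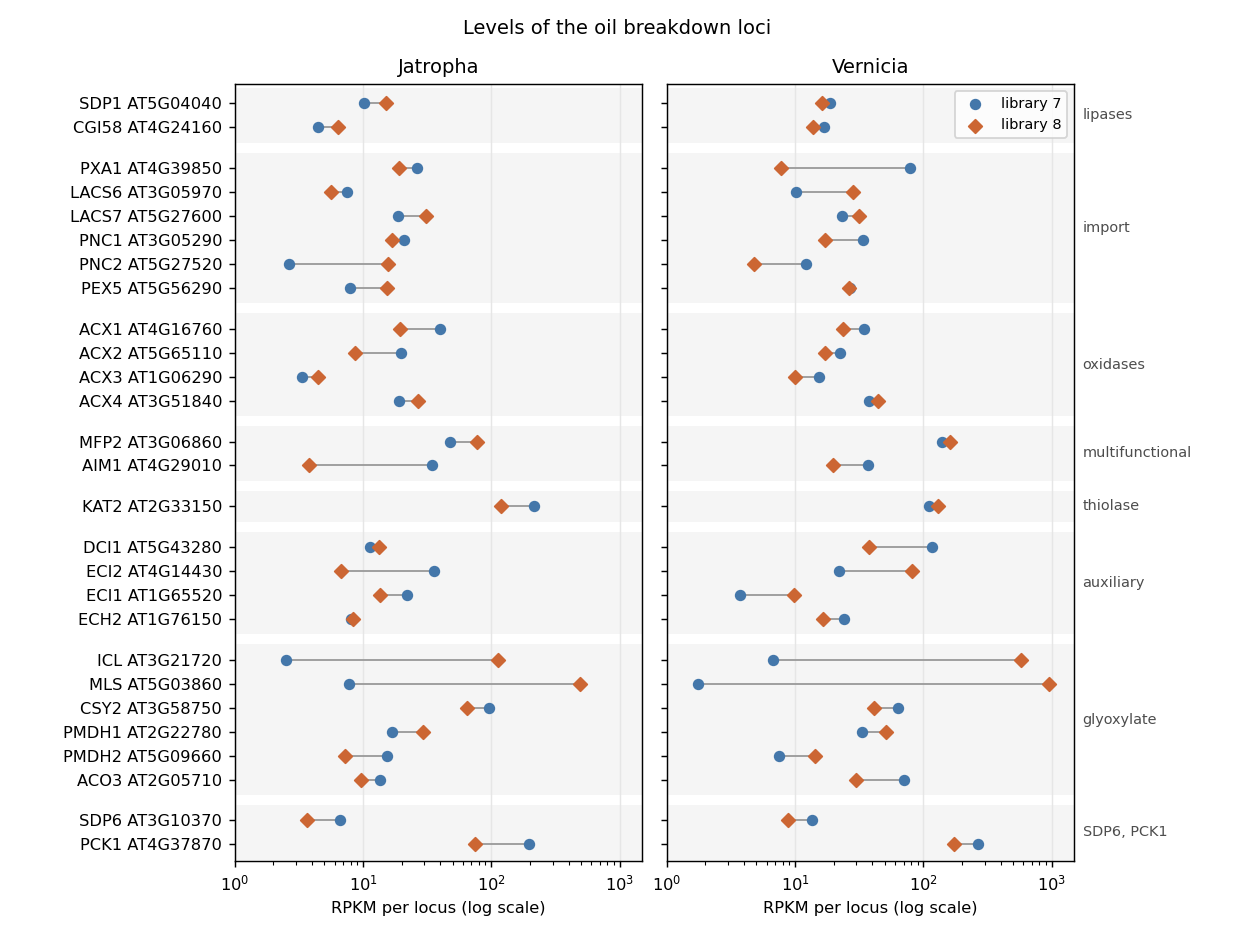
RPKM of the 27 members with a contig, on a log axis, in library 7 (circles) and library 8 (diamonds) of each species, 1 library each, grouped by role. ICL and MLS are the only loci that cross most of the axis, from 2.49 to 112 and from 7.78 to 495 RPKM in Jatropha, and from 6.75 to 580.05 and from 1.74 to 956 in Vernicia.

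The glyoxylate cycle held the widest differences. Isocitrate lyase (AT3G21720, ICL), which splits isocitrate into succinate and glyoxylate, had 2.49 RPKM in library 7 of Jatropha and 112 in its library 8. In Vernicia it had 6.75 and 580.05 RPKM. Its level lay above 13.7% of the loci of Jatropha library 7 and above 96.5% of those of library 8, and above 32.4% and 99.3% in Vernicia.

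Malate synthase (AT5G03860, MLS), which joins glyoxylate and acetyl-CoA, had 7.78 and 495 RPKM in Jatropha and 1.74 and 956 RPKM in Vernicia. It was the most abundant member of library 8 in both species, ahead of the thiolase KAT2 in Jatropha and of ICL in Vernicia. In library 7 it lay above 36.3% of all loci in Jatropha and above 10.4% in Vernicia.

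The log2 differences were 5.02 for ICL and 5.82 for MLS in Jatropha, and 6.23 and 8.45 in Vernicia. Differences of at least 32-fold in this direction were found for 52 loci of Jatropha (0.402%) and 39 loci of Vernicia (0.302%), and both enzymes were among them in both species. From the top of all differences, MLS ranked 35 in Jatropha and 3 in Vernicia, and ICL ranked 51 and 15. Their size rests on low values in library 7, where the pseudocount matters: with a pseudocount of 5 RPKM, MLS differed by 7.16 and ICL by 5.64 in Vernicia. In Jatropha MLS then differed by 5.29 and ICL by 3.97, which is below 32-fold. Scaling added to these differences, which were then 5.86 and 6.66 in Jatropha and 6.63 and 8.85 in Vernicia.

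MLS and ICL did not keep the same ratio to each other. Within a library no scaling enters such a ratio. MLS stood at 3.12 times the RPKM of ICL in Jatropha library 7 and at 4.40 times in library 8. In Vernicia it stood at 0.258 times ICL in library 7 and at 1.65 times in library 8, so their order was different in the 2 libraries.

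The other enzymes of the cycle, which also serve other pathways, showed no such difference. Citrate synthase CSY2 (AT3G58750), the peroxisomal form that condenses acetyl-CoA with oxaloacetate, was abundant in library 7, with 96.5 RPKM in Jatropha and 63.4 in Vernicia. In library 8 it had 65.1 and 41.0 RPKM. Relative to CSY2, ICL stood at 0.0258 in Jatropha library 7 and 1.73 in library 8, and at 0.106 and 14.1 in Vernicia.

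Peroxisomal malate dehydrogenase PMDH1 (AT2G22780), which interconverts malate and oxaloacetate, had 16.9 and 29.4 RPKM in Jatropha and 33.3 and 50.8 in Vernicia. Scaled, PMDH1 differed by 1.58 in Jatropha and 0.99 in Vernicia. Its relative PMDH2 (AT5G09660) had 15.4 and 7.24 RPKM in Jatropha, a log2 difference of -0.997 that just missed the 2-fold limit, and 7.51 and 14.4 in Vernicia. PMDH2 was thus lower in library 8 of Jatropha and higher in library 8 of Vernicia as deposited. The Jatropha value lay close to the median of all loci, -0.93. Scaled, PMDH2 differed by -0.24 in Jatropha and, past the 2-fold limit, by 1.23 in Vernicia. In both species contigs of a shared assembly component carried the codes of PMDH1 and PMDH2, so the reads of these loci may be split between them. Summed, the pair differed by 0.17 in Jatropha and 0.66 in Vernicia as deposited, and by 0.996 and 1.06 scaled.

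Aconitase ACO3 (AT2G05710), which makes isocitrate from citrate and in Arabidopsis acts outside the peroxisome, had 13.6 and 9.70 RPKM in Jatropha. In Vernicia it had 71.0 and 29.7 RPKM over 5 contigs, all of them lower in library 8, and a log2 difference of -1.23, or -0.84 when scaled. The 4 cycle members other than ICL and MLS summed to 142 and 111 RPKM in Jatropha and to 175 and 136 in Vernicia.

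**Figure D2:**
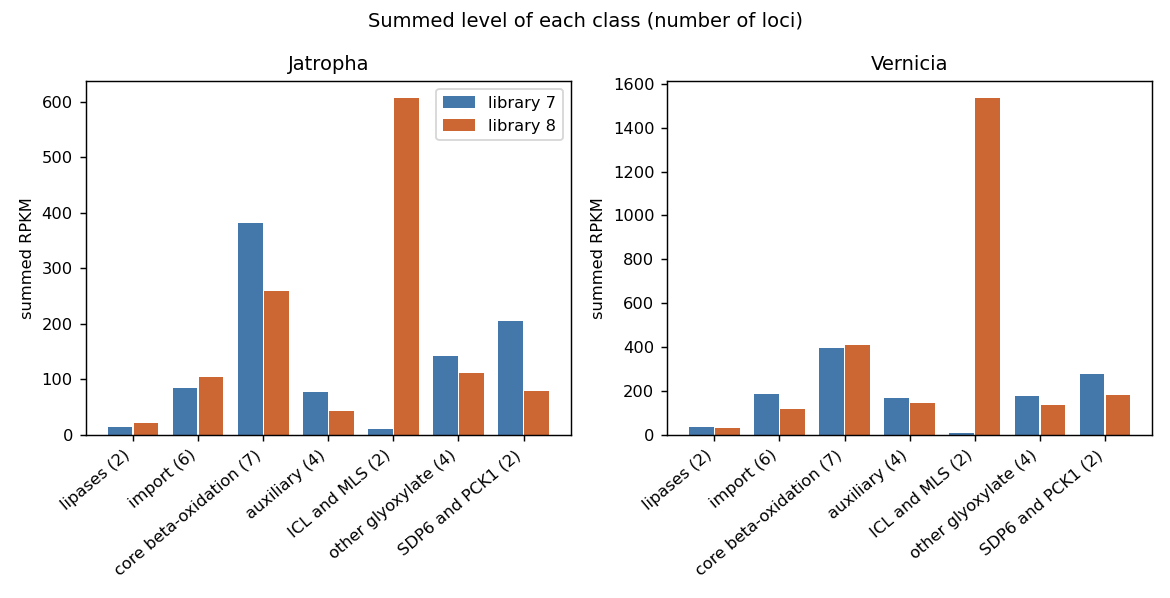
Summed RPKM of each class of members (number of loci in brackets) in library 7 and library 8 of each species, on linear axes that start at 0 and differ between the panels. The sum of ICL and MLS was 10.3 and 607 RPKM in Jatropha and 8.49 and 1536 in Vernicia, while core beta-oxidation was at 381 and 260 in Jatropha and 396 and 407 in Vernicia.

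ICL and MLS, set apart after their values were seen, made up 1.12% of the summed RPKM of the members in Jatropha library 7 and 49.6% in library 8. In Vernicia they made up 0.68% and 60.2%. The members as a whole summed to 914 and 1224 RPKM in Jatropha and to 1245 and 2551 in Vernicia. Without ICL and MLS the other 25 summed to 904 and 617 RPKM in Jatropha, a log2 difference of -0.55 as deposited and 0.29 scaled. In Vernicia they summed to 1237 and 1015 RPKM, at -0.28 and 0.12. As deposited, the higher sum of the pathway in library 8 was therefore carried by these 2 loci.

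The oil-releasing members were SDP1 and CGI58. SDP1 (AT5G04040), the main triacylglycerol lipase of oil bodies in Arabidopsis seedlings, had 10.1 RPKM in library 7 and 15.2 in library 8 of Jatropha, and 18.8 and 16.3 in Vernicia. CGI58 (AT4G24160), a lipase-related protein of the alpha/beta hydrolase family, had 4.46 and 6.34 RPKM in Jatropha and 16.8 and 13.8 in Vernicia. Neither SDP1 nor CGI58 reached 2-fold as deposited. Scaled, SDP1 differed by 1.34 and CGI58 by 1.18 in Jatropha, and by 0.18 and 0.11 in Vernicia.

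The next members bring fatty acids, ATP and proteins into the peroxisome. The ABC transporter PXA1 (AT4G39850), the entry gate for fatty acids, had 78.2 RPKM in library 7 of Vernicia against 7.75 in library 8, which is -3.18 on the log2 scale. That was the largest deficit of any member in Vernicia, and it lay at -2.82 when scaled. In Jatropha PXA1 had 26.6 and 19.0 RPKM over 7 contigs, at -0.46 as deposited and 0.34 scaled, so no comparable difference was seen. The most abundant of these contigs had 22.6 and 11.6 RPKM and the others 1.98 RPKM or less.

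PNC2 (AT5G27520), a carrier that brings ATP into the peroxisome, had 2.64 and 15.7 RPKM in Jatropha, a log2 difference of 2.20, and 12.2 and 4.74 RPKM in Vernicia, a log2 difference of -1.21. Its relative PNC1 (AT3G05290) had 20.9 and 16.9 RPKM in Jatropha and 34.0 and 17.0 in Vernicia. PNC1 stood at 7.91 times PNC2 in Jatropha library 7 and at 1.08 times in library 8. In Vernicia a shared component carried both codes. The sum of the pair differed by 0.46 in Jatropha and -1.06 in Vernicia as deposited, and by 1.275 and -0.67 scaled.

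Peroxisomal long-chain acyl-CoA synthetases activate fatty acids for beta-oxidation. LACS6 (AT3G05970) had 7.50 and 5.64 RPKM in Jatropha and 10.2 and 28.5 in Vernicia, where it differed by 1.40. LACS7 (AT5G27600) had 18.8 and 31.2 RPKM in Jatropha and 23.3 and 31.6 in Vernicia. Scaled, LACS7 differed by 1.52 in Jatropha and 0.81 in Vernicia. A shared component carried both codes in each species, and the summed pair differed by 0.47 in Jatropha and 0.83 in Vernicia as deposited, under the 2-fold limit, and by 1.29 and 1.22 scaled, past it. PEX5 (AT5G56290), the receptor that imports peroxisomal enzymes, had 7.96 and 15.3 RPKM in Jatropha and 26.7 and 26.1 in Vernicia. Scaled, it differed by 1.66 in Jatropha.

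**Figure D3:**
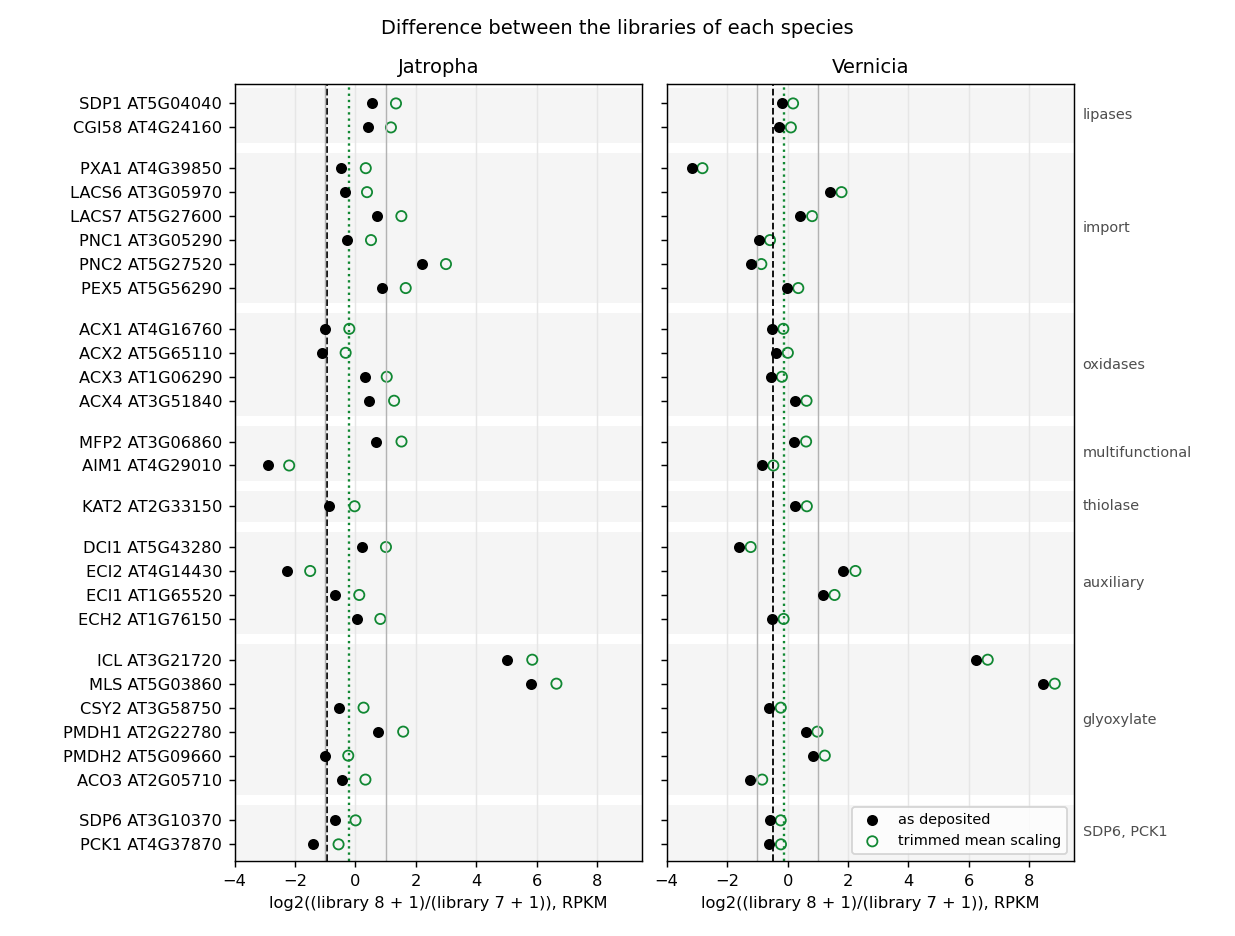
Log2 difference between library 8 and library 7 of each member, as deposited (filled) and after trimmed mean scaling (open), with the medians of all loci (dashed as deposited, dotted scaled) and 2-fold limits (grey lines). Most members lie within 2-fold as deposited, while ICL and MLS lie at 5.02 to 8.45 and AIM1 (-2.89 in Jatropha) and PXA1 (-3.18 in Vernicia) at the low end.

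Among the acyl-CoA oxidases, which catalyse the first step of each beta-oxidation round, none differed 2-fold in Vernicia. Nor did most loci there, since 7.7% of all loci were at least 2-fold higher and 18.8% lower as deposited. ACX1 (AT4G16760), which prefers medium to long chains, had 39.8 and 19.2 RPKM in Jatropha and 34.4 and 23.6 in Vernicia. ACX2 (AT5G65110), the long-chain form, had 19.6 and 8.64 RPKM in Jatropha and 22.4 and 17.1 in Vernicia. In Jatropha these were lower by -1.01 and -1.10 on the log2 scale, close to the median of all loci, and at -0.20 and -0.32 scaled.

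ACX3 (AT1G06290), the medium-chain form, had 3.35 and 4.43 RPKM in Jatropha and 15.3 and 10.1 in Vernicia. ACX4 (AT3G51840), the short-chain form, had 19.2 and 26.9 RPKM in Jatropha and 37.3 and 44.1 in Vernicia. It was the most abundant oxidase of library 8 in both species. Scaled, ACX3 differed by 1.04 and ACX4 by 1.28 in Jatropha, past the 2-fold limit, and by -0.19 and 0.63 in Vernicia.

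The multifunctional proteins, which hydrate and oxidise the chain in the middle steps, parted from each other. MFP2 (AT3G06860) had 47.7 and 77.8 RPKM in Jatropha and 139 and 162 in Vernicia. Scaled, MFP2 differed by 1.53 in Jatropha, past the 2-fold limit, and by 0.61 in Vernicia. AIM1 (AT4G29010) had 34.6 and 3.79 RPKM in Jatropha, a log2 difference of -2.89 and the largest deficit of any member there, and 36.7 and 19.8 in Vernicia, at -0.85. Within the libraries, MFP2 stood at 1.38 times AIM1 in Jatropha library 7 and 20.5 times in library 8, and at 3.79 and 8.14 times in Vernicia. MFP2 was thus further above AIM1 in library 8 in both species. Both together had 82.3 and 81.6 RPKM in Jatropha and 176 and 182 in Vernicia, log2 differences of -0.01 and 0.05 as deposited and of 0.82 and 0.44 scaled.

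The thiolase KAT2 (AT2G33150), which cleaves off acetyl-CoA in the last step, was among the most abundant members throughout. It had 217 and 119 RPKM in Jatropha and 111 and 131 in Vernicia. It lay above 93.7% to 96.8% of all loci in the 4 libraries. ICL stood at 0.0115 times KAT2 in Jatropha library 7 and 0.947 times in library 8, and at 0.0611 and 4.44 times in Vernicia. Core beta-oxidation (4 oxidases, 2 multifunctional proteins and the thiolase) summed to a log2 difference of -0.55 in Jatropha and 0.04 in Vernicia, or 0.29 and 0.44 scaled. KAT2 weighed heavily in the Jatropha sum, with 217 of 381 RPKM in library 7 and 119 of 260 in library 8. Alone, KAT2 differed by -0.86 in Jatropha and 0.24 in Vernicia, or -0.03 and 0.64 scaled.

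The auxiliary enzymes prepare unsaturated acyl chains for beta-oxidation. ECI2 (AT4G14430), an enoyl-CoA isomerase, had 35.6 and 6.68 RPKM in Jatropha, a log2 difference of -2.25. In Vernicia it had 21.8 and 81.4 RPKM, a log2 difference of 1.85. ECI1 (AT1G65520), its relative, had 22.0 and 13.5 RPKM in Jatropha and 3.74 and 9.80 in Vernicia, at -0.67 and 1.19. Scaled, ECI1 stood at 0.13 in Jatropha and 1.56 in Vernicia. Its 3 Jatropha contigs went different ways, with 5.67 and 7.51, 12.8 and 5.38, and 3.52 and 0.61 RPKM.

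The dienoyl-CoA isomerase DCI1 (AT5G43280) had 117 RPKM in library 7 of Vernicia against 37.7 in library 8, which is -1.61 on the log2 scale. In Jatropha it had 11.4 and 13.4 RPKM. The enoyl-CoA hydratase ECH2 (AT1G76150) had 8.08 and 8.43 RPKM in Jatropha and 23.9 and 16.5 in Vernicia. As deposited, 1 auxiliary locus was thus at least 2-fold lower in Jatropha, and in Vernicia 2 were higher and 1 was lower. Of all loci, 7.15% were higher and 46.9% lower in Jatropha, and 7.7% and 18.8% in Vernicia. Scaled, DCI1 was also past 2-fold in Jatropha, higher by 1.01.

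Beyond the cycle, phosphoenolpyruvate carboxykinase PCK1 (AT4G37870), which starts sugar synthesis from oxaloacetate, was abundant in library 7, where ICL and MLS were low. It had 198 and 75.0 RPKM in Jatropha, at -1.39 as deposited and -0.56 scaled, and 265 and 172 in Vernicia, at -0.62 and -0.22. PCK1 stood at 79.5 times ICL in Jatropha library 7 and 0.667 times in library 8, and at 39.3 and 0.297 times in Vernicia. SDP6 (AT3G10370), the mitochondrial glycerol-3-phosphate dehydrogenase that handles the glycerol of oil, had 6.56 and 3.68 RPKM in Jatropha and 13.6 and 8.72 in Vernicia.

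**Figure D4:**
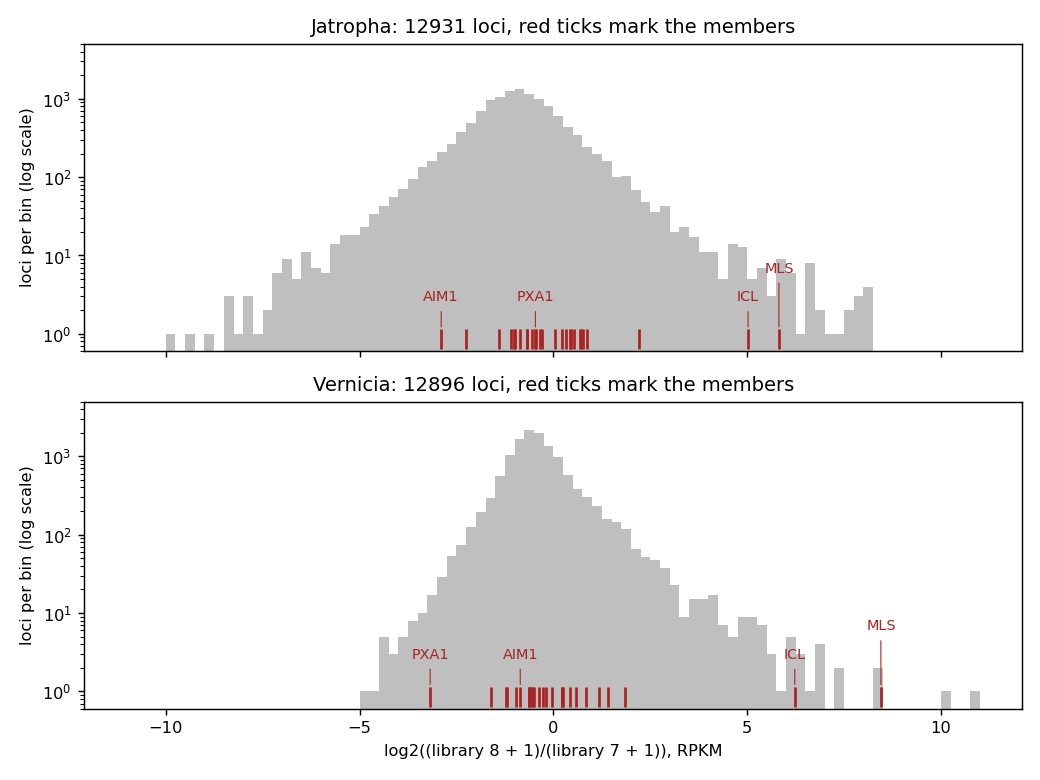
Number of loci (log axis) by log2 difference between library 8 and library 7, in bins of 0.25, with the 27 members as red ticks and 4 of them named. ICL and MLS lie in the upper tail in both species, where 0.402% of Jatropha loci and 0.302% of Vernicia loci were at least 32-fold higher, and most other members lie in the body of the distribution.

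Set side by side, ICL and MLS exceeded 2-fold in favour of library 8 in both species, and no member did so in favour of library 7 in both, as deposited and scaled alike. These 2 were 7.41% of the members. Of the 11054 loci with at least 1 RPKM in either library of each species, 1.85% were 2-fold higher in both, or 3.03% scaled. The share of all loci 2-fold lower in both was not computed. As deposited, PNC2 was at least 2-fold higher in Jatropha and lower in Vernicia, and ECI2 the reverse. Scaled, ECI2 stood at -1.50 and 2.25, PNC2 in Vernicia was within 2-fold at -0.87, and DCI1 stood at 1.01 and -1.22. Opposite differences of at least 2-fold were thus found for 7.41% of the members, as deposited and scaled. Of the 11054 loci, 3.81% had them as deposited and 4.08% scaled. By sign alone, 6 members were higher in library 8 of both species (LACS7, ACX4, MFP2, ICL, MLS and PMDH1), 9 were lower in both and 12 differed in sign as deposited. That is 22.2%, 33.3% and 44.4% of the members, beside 6.32%, 63.9% and 29.7% of the 11054 loci with at least 1 RPKM in either library of each species. Scaled, the counts were 11, 3 and 13, or 40.7%, 11.1% and 48.1%, beside 17.9%, 35.1% and 47.0% of those loci, and ACX1, AIM1 and PCK1 were the members lower in both. Levels were not compared between species, because the tables were normalized separately, and the labels do not say whether equal library numbers mark equal stages in the 2 trees.

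The largest differences stayed past 2-fold under 10 settings, but not all of them did once related loci were summed. In Jatropha ICL, MLS and PNC2 were at least 2-fold higher, and AIM1 and ECI2 at least 2-fold lower, under all 10 settings of pseudocount, filter, scaling and contig choice. In Vernicia the same held for ICL, MLS, LACS6 and ECI2 on the higher side and for PXA1 and DCI1 on the lower side. The share of all loci past 2-fold under all 10 settings was not computed. As deposited alone, 7.15% of all Jatropha loci were higher and 46.9% lower, and 7.7% and 18.8% of those of Vernicia. Summing PNC2 or LACS6 with the other locus of its pair brought it under 2-fold as deposited, except PNC2 in Vernicia. Scaled, the summed pairs passed 2-fold in both species for LACS6 and LACS7, and in Jatropha for PNC1 and PNC2.

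**Figure D5:**
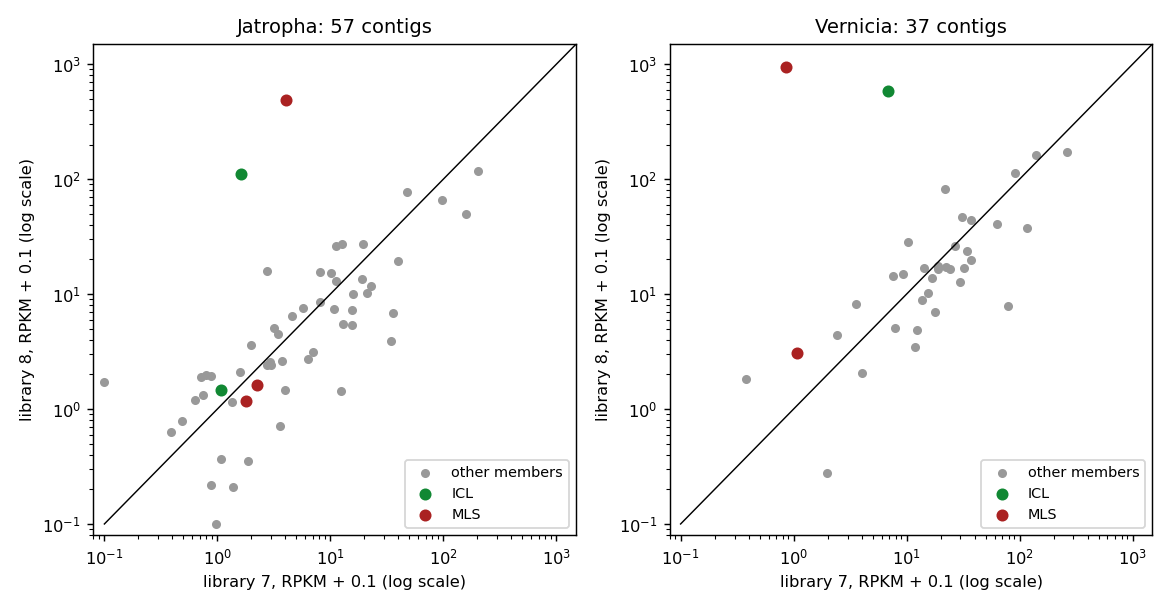
RPKM + 0.1 of every contig of the members in library 7 and library 8, on log axes, with 57 contigs in Jatropha and 37 in Vernicia and a line of equal values. For ICL and MLS 1 contig each lies far above the line, while their other contigs had 2.95 RPKM or less in both libraries.

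The excess of ICL and MLS came from 1 contig each. In Jatropha the ICL contig comp30050_c0 had 1.52 and 111 RPKM, and the other ICL contig 0.97 and 1.35. The MLS contig comp15380_c0 had 3.95 and 492 RPKM, and the other 2 MLS contigs 2.12 or less in each library. In Vernicia the only ICL contig, comp26908_c0, had 6.75 and 580.05 RPKM. The MLS contig comp26883_c0 had 0.76 and 953 RPKM, beside 0.98 and 2.95 RPKM for the other MLS contig. Whether the low contigs are fragments of the same transcript or other gene copies cannot be read from the tables.

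Of 29 further loci of the same peroxisomal pathways, 25 had contigs in each species. By the 2-fold limit, 3 were higher in Jatropha library 8 and 8 lower, and in Vernicia 2 were higher and 1 lower, with medians of -0.35 and -0.46. These were 12.0% and 32% in Jatropha, beside 7.15% and 46.9% of all loci, and 8.0% and 4.0% in Vernicia, beside 7.7% and 18.8%. Scaled, the counts were 6 and 2 in Jatropha (24.0% and 8.0%, beside 15.0% and 24.3% of all loci) and 3 and 1 in Vernicia (12.0% and 4.0%, beside 11.2% and 9.42%). Among the import proteins, PEX7 (AT1G29260), the receptor for thiolase in plants, had 34.9 and 10.7 RPKM in Jatropha and 35.6 and 19.7 in Vernicia. The oil body lipase OBL1 (AT3G14360) was higher in library 8 of both species, with 13.0 and 28.3 RPKM in Jatropha and 7.15 and 15.7 in Vernicia. Catalase CAT2 (AT4G35090), which removes the hydrogen peroxide made by the oxidases, had 129.63 and 131 RPKM in Jatropha and 352 and 411 in Vernicia. IBR3 (AT3G06810), an acyl-CoA dehydrogenase-like protein, had 7.54 and 24.7 RPKM in Jatropha and 33.1 and 10.4 in Vernicia, opposite differences of 1.59 and -1.59.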

How the data were processed

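Polyadenylated RNA of 4 seed libraries was sequenced with a directional protocol, per the labels' protocols. The authors deposited RPKM values of assembled contigs, rounded to 2 decimals, with Arabidopsis codes of the TAIR10 release. The unit is named in the deposited tables' names. Bowtie and edgeR appear in the submitters' processing notes. No source used here names the assembler, the counting or the search behind the codes.

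RPKM was summed per code, and log2((library 8 + 1)/(library 7 + 1)) was computed for loci with at least 1 RPKM in either library. RPKM depends on library totals, so a few abundant contigs can lower all others. With 1 library per stage no test was run. Other settings tried were a pseudocount of 0.1 or 5 RPKM, no filter or one of 10 RPKM, a 4-fold limit, 4 scalings and the most abundant contig per locus. Trimmed mean scaling used contigs with at least 1 RPKM in both libraries and left out 30% of ratios and 5% of levels at each end. The scaling and the difference of single contigs were tested on simulated data, in which the raised contigs started from at least 10 RPKM. The summing per code and rises from lower levels were not part of that test. The members and lists were chosen with earlier results of these data known. All 27 members found are named, with the classes and symbols taken from general knowledge of Arabidopsis, since the files pair codes with no names. From the 29 further loci, those named were chosen after their values were seen. Python 3.11.15, pandas 2.3.3, NumPy 2.4.6 and matplotlib 3.10.9 were used.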

Additional observations from a re-analysis of the deposited data

Results flagged for a closer look

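Members at least 2-fold apart, as deposited, in opposite directions in the 2 species were singled out. They were 7.41% of the members, beside 3.81% of the 11054 loci with at least 1 RPKM in either library of each species. Scaled, such members were 7.41%, beside 4.08% of those loci. PNC2 (AT5G27520) differed by 2.20 in Jatropha and by -1.21 in Vernicia on the log2 scale, library 8 over library 7. When it was summed with PNC1, with which it shares an assembly component in Vernicia, the values were 0.46 and -1.06. The Vernicia value of PNC2 alone was within 2-fold after trimmed mean and median-ratio scaling (-0.87 in each) and with a pseudocount of 5 RPKM (-0.82). ECI2 (AT4G14430) differed by -2.25 in Jatropha and by 1.85 in Vernicia, each from 1 contig. The difference between species was not tested, since each value rests on 1 library per stage, and it takes equal library numbers as equal stages, which no label states.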

How the results depend on the processing

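In Jatropha, where 3 members passed 2-fold on the higher side in library 8 and 5 on the lower, median-ratio, trimmed mean and top-100-free total scaling each gave 12 higher and 2 lower, and equal totals 7 and 2. Scaling moved all loci: 7.15% were higher and 46.9% lower as deposited, and 15.0% and 24.3% after trimmed mean scaling. The shares of all loci under the other settings were not computed. A pseudocount of 5 RPKM gave 3 lower, a 4-fold limit 2 lower, and the most abundant contig per locus 5 higher and 8 lower. The median member, at -0.29, stood at 0.51, 0.52 and 0.59 under the first 3 scalings, by construction as library 8 was raised, and the sum of the members in library 8 at 2176, 2189 and 2317 RPKM against 1224. In Vernicia, with 5 higher and 4 lower, the 4-fold limit gave 2 and 1, and median-ratio and trimmed mean scaling 2 lower. Of all Vernicia loci, 7.7% were 2-fold higher and 18.8% lower as deposited, and 11.2% and 9.42% after trimmed mean scaling. Without ICL and MLS, an alternative added after seeing the data, 1 member was higher in Jatropha and 3 in Vernicia, and the members of library 8 summed to 617 and 1015 RPKM. Elsewhere the cause was not tested. No member past 2-fold as deposited changed sign under any setting. The further loci and the seed filling, green tissue and seed coat codes were computed only as deposited and after trimmed mean scaling. No paired analysis was possible because each stage holds 1 library. Read totals are unknown, so the error of low values such as those of ICL and MLS in library 7 could not be given.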

Other observations

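Contigs of 1 assembly component could carry the codes of 2 related loci. In Jatropha the 3 contigs of component comp20482 were spread over LACS6 and LACS7. The more abundant ones had 6.94 and 3.04 RPKM under the code of LACS7 and 6.23 and 2.61 under that of LACS6, and the third, comp20482_c1, had 0.62 and 1.80 under LACS6. The separate LACS7 contig comp24411_c0 had 11.1 and 26.4 RPKM and was higher in library 8. For the peroxisomal malate dehydrogenases, comp8800_c0 had 3.60 and 2.51 RPKM under PMDH1 and comp8800_c1 had 15.4 and 7.24 under PMDH2, while the separate PMDH1 contig comp24409_c0 had 12.4 and 26.9.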
